A study of Mus musculus with 22 samples.

Results

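The adrenergic receptor family was followed through 22 RNA-seq samples of the *Phf8* knockout (KO) mouse series, as 8 of the 39179 genes counted in every sample. The members are the α1 receptor genes *Adra1a*, *Adra1b* and *Adra1d*, the α2 receptor genes *Adra2a*, *Adra2b* and *Adra2c*, and the β receptor genes *Adrb1* and *Adrb3*. They were taken from a list of gene names, each matched to its Ensembl identifier. *Phf8* is an X-linked histone demethylase gene. Its KO allele lacks exons 7 and 8, which were removed with Cre in clones of targeted V6.5 embryonic stem cells (ESCs). All groups, WT and KO alike, carry the strain label B6x129SvJ. The study holds 2 WT and 2 KO ESC samples, grown from blastocyst outgrowths on gelatin or feeder cells, and 3 WT and 3 KO samples each of neural progenitor cells (NPCs) taken from E16.5 embryos and kept as a monolayer, of the ventral striatum (STR) and of the prefrontal cortex (PFC), the last 2 from animals aged 2 months. The samples of a group are numbered, but the labels do not say whether they came from separate animals or cultures, so each p-value measures the spread between these samples, which may be technical.

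Adrenergic receptors are G protein-coupled receptors for noradrenaline and adrenaline. The α1 receptors act mainly through Gq proteins and phospholipase C, the α2 receptors through Gi proteins, which lower cyclic AMP and restrain transmitter release, and the β receptors through Gs proteins and adenylyl cyclase, which raise cyclic AMP. In the forebrain they receive noradrenaline from axons whose cell bodies lie in the brainstem, so the receptor transcripts are made in the target tissue and the enzyme and transporter transcripts of the noradrenergic neuron mostly are not.

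Between 5898286 and 15539811 reads per sample fell on genes. *Phf8* had between 38.4 and 70.3 normalised counts (CPM, reads scaled to a common library size) in the WT samples and between 13.4 and 22.2 CPM in the KO samples, and in every tissue each KO sample was below each WT sample. The tissue labels fitted their marker genes: 6 ESC markers (such as *Pou5f1* and *Nanog*) summed to 3695 CPM or more in each ESC sample and to 24.2 CPM or less elsewhere, and 7 striatal projection neuron markers summed to 1406 to 1949 CPM in STR and to 221 to 292 CPM in PFC. The KO STR replicate 1 stood apart, with 8 hypothalamic genes summing to 185 CPM. Its 6 cortical excitatory neuron genes summed to 122 CPM against 417 to 599 CPM in the other 5 STR samples. KO STR replicates 2 and 3 were also above every WT STR sample in the hypothalamic sum, at 31.1 and 22.4 CPM against 10.6 to 15.1 CPM. In STR 2 more sums did not overlap between the genotypes. These were 5 astrocyte genes (787 to 867 CPM in KO, 747 to 773 in WT) and 5 choroid plexus genes (69.3 to 76.2 and 46.5 to 65.4). The part of these marker genes in the receptor values was not tested. Both ESC replicates 2 stood apart from both replicates 1 in 6 fibroblast genes, at 3528 and 4310 CPM against 157 and 147 CPM. Where leaving out KO STR replicate 1 or an ESC replicate 2 changed a call, a direction or a value by much, both values are given. In these bulk samples fewer cells of a type and less RNA per cell cannot be told apart.

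Each tissue held a different set of adrenergic receptors. PFC was rich in *Adra1b*, *Adra1d* and *Adrb1*, STR in *Adra2c*, *Adra2a* and *Adrb1*, NPCs in *Adrb1* and *Adra1a*, and ESCs in *Adrb3*. Per length of transcript, as RPKM (reads per kilobase of exon, scaled to library size), the summed level of the 8 genes in WT was 74.8 ± 2.18 in PFC, 44.8 ± 2.53 in STR, 16.2 ± 1.04 in NPCs (SD, n = 3 each) and 7.05 ± 1.35 in ESCs (SD, n = 2). The 4 WT groups did not overlap in this sum. In KO PFC it ran from 78.2 to 81.4, above the 72.8 to 77.1 of WT PFC, a difference given as a description with no test. In 1 sample 3 reads amount to 0.221 to 0.469 CPM, and values at or below this are treated as not detected at this depth.

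**Figure D1:**
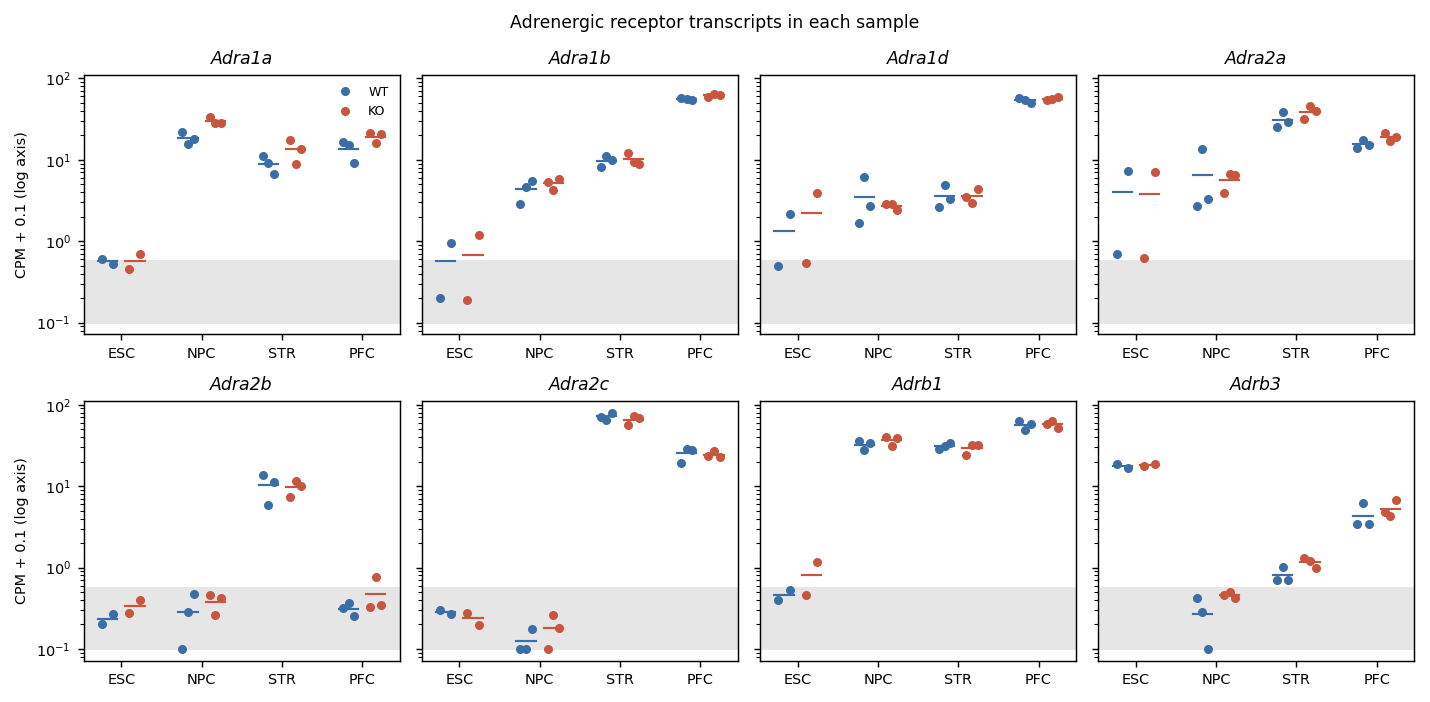
Level of each receptor gene in each of the 22 samples, in CPM + 0.1 on a log axis, with WT in blue, KO in red, 1 point per sample and a bar at the group mean. The grey band reaches up to the value of 3 reads in the shallowest sample, and *Adra2b* lies above it in STR and in 1 KO PFC sample, *Adra2c* in STR and PFC, and *Adrb3* most clearly in ESCs and PFC.

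Among the α1 genes, *Adra1b* (ENSMUSG00000050541, GRCm38 chr11:43774606-43901210, minus strand, 5 exons in its longest coding transcript) was a PFC transcript. It was at 58.1, 56.2 and 53.6 CPM in WT PFC replicates 1, 2 and 3 and at 8.12, 10.9 and 9.72 CPM in WT STR. The lowest PFC sample was far above the highest STR sample, and the KO samples gave the same picture, with 59.3 to 64.0 CPM in PFC and 8.86 to 11.98 CPM in STR. Regions were compared within a genotype with the quasi-likelihood test of edgeR, and the p-values were adjusted over all genes tested to give the false discovery rate (FDR). STR against PFC gave a log2 fold change (log2FC) of -2.52 (SE 0.12, FDR 2.91e-07) in WT and -2.59 (SE 0.12, FDR 2.81e-06) in KO samples.

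*Adra1d* (ENSMUSG00000027335, chr2:131545850-131562283, minus strand) differed still more between the regions. WT PFC held 57.0, 53.6 and 50.3 CPM and WT STR held 2.51, 4.76 and 3.24 CPM. No sample of either genotype came near the other region, with 53.7 to 58.3 CPM in KO PFC and 2.87 to 4.30 CPM in KO STR. STR against PFC gave -3.92 on the log2 scale (SE 0.18, FDR 2.06e-07) in WT and -3.95 (SE 0.12, FDR 7.17e-07) in KO samples. An antisense gene, *Gm14285*, shares 147 exonic bases with *Adra1d*, and reads of the 2 cannot be told apart where counting ignores strand.

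*Adra1a* (ENSMUSG00000045875, chr14:66635251-66771168, plus strand) was the α1 gene with the weakest contrast between regions. WT PFC held 16.48, 15.25 and 9.06 CPM and WT STR held 11.1, 8.94 and 6.60 CPM. The ranges overlapped, but each STR sample was below the PFC sample of its own number, as it was in the KO samples (21.1, 15.9 and 20.4 CPM in PFC, 17.5, 8.84 and 13.6 CPM in STR). The regional log2FC of -0.60 (SE 0.24, FDR 0.106) in WT and of -0.50 (SE 0.23, FDR 0.148) in KO samples did not pass the test. With the replicate number as a block it passed in both genotypes, at -0.59 (FDR 0.00386) and -0.52 (FDR 0.028). Without WT PFC replicate 3, the lowest PFC sample, WT gave -0.80 (FDR 0.0128), without WT STR replicate 1 it gave -0.81 (FDR 0.0496), and without KO STR replicate 1 the KO samples gave -0.76 (FDR 0.0264).

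The α2 genes ran the other way and were higher in STR. *Adra2c* (ENSMUSG00000045318, chr5:35278319-35281763, plus strand, 1 exon) held 70.0, 65.0 and 79.8 CPM in WT STR and 19.2, 28.1 and 27.9 CPM in WT PFC. *Adra2a* (ENSMUSG00000033717, chr19:54044151-54048982, plus strand, 1 exon), which encodes the receptor that is the main α2 autoreceptor of noradrenergic neurons, held 25.6, 38.3 and 29.4 CPM in WT STR and 14.1, 17.3 and 15.0 CPM in WT PFC. For both genes every STR sample was above every PFC sample, in WT and in KO. Their regional log2FCs in WT were 1.54 (SE 0.14, FDR 2.86e-05) for *Adra2c* and 1.03 (SE 0.16, FDR 9.11e-04) for *Adra2a*. In KO samples it was 1.45 (SE 0.11, FDR 4.70e-05) and 1.05 (SE 0.15, FDR 0.00106).

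*Adra2b* (ENSMUSG00000058620, chr2:127363208-127367221, plus strand, 1 exon in its longest coding transcript) was detected well in STR alone among the 4 tissues. WT STR replicates 1, 2 and 3 held 135, 49 and 94 reads (13.5, 5.69 and 11.3 CPM), and KO STR held 65, 103 and 79 reads. WT PFC held 2, 3 and 1 reads, KO PFC 2, 6 and 2, and no ESC or NPC sample held more than 5. The STR samples varied among themselves but did not overlap any other sample. For STR against PFC the log2FC was 5.46 (95% interval 4.38 to 6.54, FDR 2.00e-05) in WT and 4.62 (3.76 to 5.47, FDR 6.06e-05) in KO samples.

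Of the β genes, *Adrb1* (ENSMUSG00000035283, chr19:56722199-56733113, plus strand), which encodes the β1 receptor, was higher in PFC but was also well expressed in STR. It was at 62.7, 48.4 and 58.2 CPM in WT PFC and 28.2, 31.2 and 33.6 CPM in WT STR, without overlap. Its regional log2FC was -0.84 (SE 0.12, FDR 4.85e-04) in WT and -0.95 (SE 0.12, FDR 8.02e-04) in KO samples. *Adrb3* (ENSMUSG00000031489, chr8:27225776-27250616, minus strand), best known from fat cells, was low in both regions but lower in STR, with 30, 69 and 21 reads in WT PFC and 6, 8 and 5 reads in WT STR. Its log2FC was -2.57 (SE 0.37, FDR 5.71e-04) in WT and -2.22 (SE 0.29, FDR 8.41e-04) in KO samples.

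Thus 7 of the 8 members passed the test between the regions in WT, where 24.4% of all genes tested did, and the same 7 passed in KO, where 27.7% of all genes did. In both genotypes 3 members were higher in STR (*Adra2a*, *Adra2b*, *Adra2c*) and 4 were lower (*Adra1b*, *Adra1d*, *Adrb1*, *Adrb3*). The WT and KO comparisons share no sample. STR and PFC differ in many cell types, and the share of the receptor differences that comes with the neuron types was not tested. Without the KO STR replicate 1 the KO samples gave 8 members, the same 7 and *Adra1a*, with log2FCs of -2.74 for *Adra1b*, -3.94 for *Adra1d*, 1.18 for *Adra2a*, 4.78 for *Adra2b*, 1.55 for *Adra2c*, -0.83 for *Adrb1* and -2.32 for *Adrb3*.

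**Figure D2:**
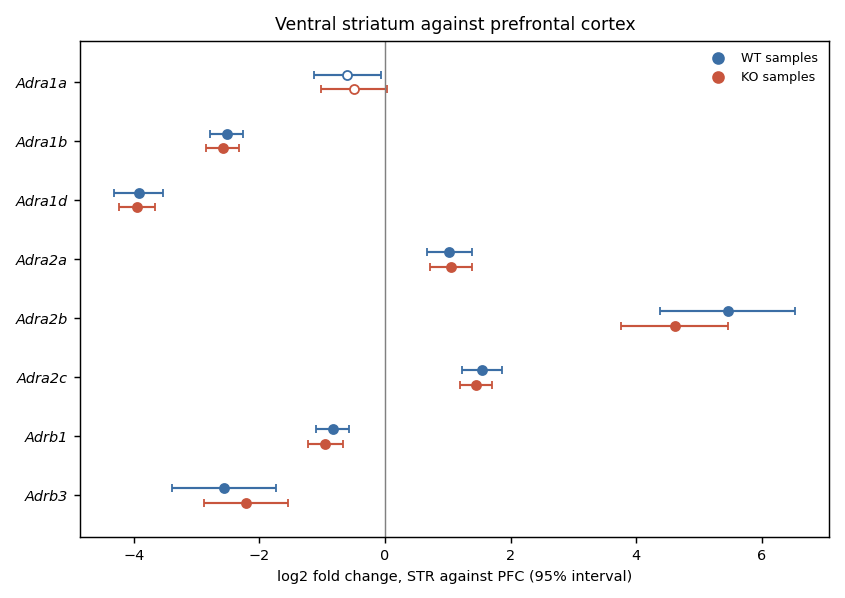
Log2FC of STR against PFC for the 8 genes with its 95% interval, in WT samples (blue) and KO samples (red). Filled points passed an FDR of 0.05, and the 3 α2 genes lie to the right of 0 and *Adra1b*, *Adra1d*, *Adrb1* and *Adrb3* to the left in both genotypes.

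The sequences just upstream of 3 of these genes are shown because the genes differ in region: *Adra1b* high in PFC, *Adra2b* high in STR alone among the 4 tissues and *Adrb1* shared by PFC, STR and NPCs. Each line gives the 250 bases before a RefSeq transcription start (GRCm38.p6), 5′ to 3′ on the strand of the gene, and 5 of the 8 members had such an entry. Capitals mark matches on either strand to a GC box (GGGCGG) or to a cyclic AMP response element half-site (TGACG), the sequence through which Gs signalling can reach genes. The TATA box (TATAAA) and the E-box (CACGTG) were searched too and had no match in these 4 windows. The windows of *Adra2a* and *Adra2c*, with 250 and 247 bases in exons of these genes, are not shown. That of *Adra2a* held 1 match to each motif searched, and that of *Adra2c* held 1 E-box and no other match.
*Adra1b*, first start, chr11:43901238-43901487, minus strand: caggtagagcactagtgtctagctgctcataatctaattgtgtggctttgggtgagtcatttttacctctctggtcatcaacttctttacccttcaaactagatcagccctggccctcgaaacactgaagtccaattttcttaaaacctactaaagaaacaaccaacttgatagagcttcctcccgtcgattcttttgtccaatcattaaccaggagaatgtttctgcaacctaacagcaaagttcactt
*Adra1b*, second start, chr11:43836490-43836739, minus strand: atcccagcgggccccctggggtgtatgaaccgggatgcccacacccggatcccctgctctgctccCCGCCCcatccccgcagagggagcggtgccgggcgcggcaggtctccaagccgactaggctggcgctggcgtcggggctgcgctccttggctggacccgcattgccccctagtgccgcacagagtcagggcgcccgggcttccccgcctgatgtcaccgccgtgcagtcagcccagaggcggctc
*Adra2b*, chr2:127362929-127363178, plus strand: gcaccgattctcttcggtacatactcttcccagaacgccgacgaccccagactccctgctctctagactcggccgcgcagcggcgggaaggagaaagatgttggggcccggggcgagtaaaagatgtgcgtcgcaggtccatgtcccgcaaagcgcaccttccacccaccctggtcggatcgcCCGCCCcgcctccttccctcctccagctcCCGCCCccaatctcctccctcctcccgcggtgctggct
*Adrb1*, chr19:56721867-56722116, plus strand: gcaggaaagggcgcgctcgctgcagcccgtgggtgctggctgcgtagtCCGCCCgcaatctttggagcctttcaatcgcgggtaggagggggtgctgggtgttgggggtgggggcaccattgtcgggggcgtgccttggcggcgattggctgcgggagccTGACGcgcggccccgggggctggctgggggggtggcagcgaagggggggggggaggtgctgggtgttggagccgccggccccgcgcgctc

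The first *Adra1b* start had 3 CpG dinucleotides and no match, while the second had 22 CpGs and 1 GC box. *Adra2b* had 23 CpGs and 2 GC boxes, and *Adrb1* had 24 CpGs, 1 GC box and 1 half-site. Over 32841 promoters of the same length the median was 6 CpGs, 32.7% held a GC box, 17.8% a half-site, 12.4% a TATA box and 6.02% an E-box. These matches are letters in a window, and binding at them was not measured.

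Adding the genes by subfamily gave each tissue a distinct balance. Counted per length, α1 transcripts made up 61.9% ± 2.10 of the receptor RPKM in WT PFC and 12.7% ± 2.15 in WT STR, while α2 transcripts made up 14.1% ± 2.65 and 66.4% ± 2.57 (SD, n = 3). The β share differed less, at 24.0% ± 2.06 in PFC and 20.9% ± 0.754 in STR, with no overlap of the samples. In PFC *Adra1d* gave 37.7% of the sum and *Adrb1* and *Adra1b* 22.3% and 22.1%, and in STR *Adra2c* alone gave 46.3%. In WT NPCs the β share was 59.9% ± 11.5 and in WT ESCs 77.2%, from 62.7% and 91.7% in the 2 samples. In KO samples the α1 share of PFC was 62.6% ± 2.02 and the α2 share of STR 65.5% ± 3.09. With the length of the longest coding transcript in place of all exons, the α1 share of PFC was 59.5% and the α2 share of STR 62.6%.

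**Figure D3:**
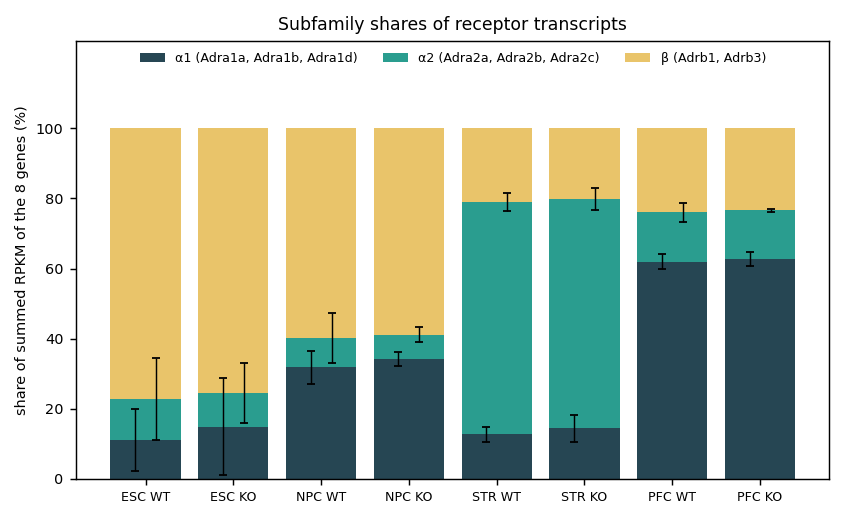
Mean share of the α1, α2 and β genes in the summed RPKM of the 8 receptor genes, in percent, for WT and KO samples of each tissue. Error bars are SDs of the α1 and α2 shares, drawn at the top of each segment, and α1 leads in PFC, α2 in STR and β in both cultures.

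From ESCs to NPCs the expressed β gene changed over. *Adrb3* held 185 and 193 reads in WT ESCs (18.59 and 16.53 CPM) and 4, 2 and 0 reads in WT NPCs. *Adrb1* held 3 and 5 reads in WT ESCs and 35.4, 27.4 and 34.2 CPM in WT NPCs. *Adra1a* followed *Adrb1*, with 5 reads in each WT ESC sample and 21.97, 15.57 and 17.93 CPM in WT NPCs. None of these 3 genes overlapped between the cell types in either genotype, where 71.2% (WT) and 71.1% (KO) of all genes tested were called. In WT the log2FC of NPCs against ESCs was -6.55 (95% interval -8.29 to -4.82) for *Adrb3*, 6.49 (5.80 to 7.19) for *Adrb1* and 5.37 (4.61 to 6.13) for *Adra1a*, with FDRs from 7.10e-05 to 6.78e-04. In KO samples it was -5.57, 5.73 and 6.03, with FDRs from 2.60e-05 to 1.11e-04.

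*Adrb3* also has an antisense neighbour, *Gm45470*, over 839 exonic bases. The culture libraries were counted without strand, so the ESC reads of *Adrb3* may include that transcript. The β share of ESCs carries the same limit. *Adra1b* rose as well, from 1 and 10 reads in WT ESCs to 34, 49 and 74 reads in WT NPCs, with a log2FC of 3.16 (SE 0.77, FDR 0.0139) in WT and 3.17 (SE 0.75, FDR 0.0102) in KO samples. Without the ESC replicate 2 of the genotype these became 5.32 and 5.75, while *Adrb3* (-6.66 and -5.52), *Adrb1* (6.75 and 6.72) and *Adra1a* (5.23 and 6.43) moved less, and all 4 were still called. Of 6 members tested, 4 passed in WT (71.2% of all genes did) and the same 4 in KO (71.1% of all genes), so the share of members was near that of all genes. *Adra2b* and *Adra2c* were at or near the limit of detection in both cell types, with at most 5 reads in any sample, and were not tested.

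*Adra2a* and *Adra1d* varied widely between samples of one culture. *Adra2a* held 6 and 85 reads in WT ESC replicates 1 and 2, and 6 and 70 reads in KO ESC replicates 1 and 2. *Adra1d* held 4 and 24 reads in WT and 5 and 39 reads in KO. Both genes, and *Adra1b* with 1 against 10 and 1 against 11 reads, were thus high in the samples numbered 2, in which the 6 fibroblast genes (*Col1a1*, *Col1a2*, *Col3a1*, *Dcn*, *Lum* and *Postn*) summed to 3528 and 4310 CPM. The part of fibroblast transcripts in these values was not tested. WT NPC replicate 2 was likewise high, with 147 reads of *Adra2a* against 32 and 43, and 65 reads of *Adra1d* against 19 and 35, while its fibroblast sum was 7.42 CPM and its oligodendrocyte sum the lowest of the 6 NPC samples, at 209 CPM against 362 to 2114 CPM.

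For *Adra2a* the log2FC of NPCs against ESCs was 0.77 (SE 1.21, FDR 0.59) in WT and 0.64 (SE 0.93, FDR 0.563) in KO samples, and for *Adra1d* 1.502 (SE 0.90, FDR 0.185) and 0.35 (SE 0.78, FDR 0.707). Without KO ESC replicate 2 both passed in KO, at 3.44 (FDR 0.00463) and 2.61 (FDR 0.0087).

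**Figure D4:**
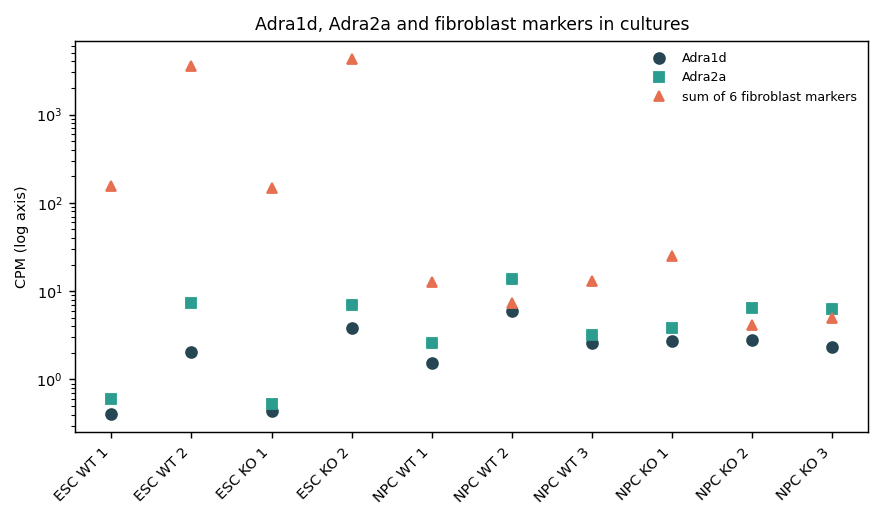
Levels of *Adra1d* and *Adra2a* and the sum of 6 fibroblast marker genes in each ESC and NPC sample, in CPM on a log axis. In ESCs all 3 are high in replicate 2 of both genotypes, and WT NPC replicate 2 holds the highest *Adra2a* value of the cultures without a high fibroblast sum.

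PFC was compared with NPCs in WT as adult tissue against embryonic progenitors, with the caution that 33.2% to 34.3% of alignments were not unique in the NPC samples and 7.62% to 8.90% in PFC. Of 7 members tested, 5 passed, all higher in PFC, against 77.1% of all genes tested. Against NPCs the log2FC was 3.71 (SE 0.22, FDR 2.29e-06) for *Adra1b*, 4.01 (SE 0.42, FDR 1.17e-04) for *Adra1d*, 0.81 (SE 0.15, FDR 0.00107) for *Adrb1* and 4.61 (SE 0.61, FDR 1.91e-04) for *Adrb3*. *Adra2c*, the fifth, had 674 reads in the 3 PFC samples and 1 read in the 3 NPC samples, a ratio after scaling of 917 with a 95% counting interval of 164 to 36270. *Adra1a* did not pass, at 18.5 ± 3.23 CPM in NPCs and 13.6 ± 3.98 CPM in PFC (SD, n = 3), with a log2FC of -0.43 (95% interval -0.96 to 0.11, FDR 0.125). *Adra2a* gave 1.27 (SE 0.63, FDR 0.105), and without WT NPC replicate 2 it gave 2.41 (FDR 1.72e-06) and *Adra1a* gave -0.53 (FDR 0.0417).

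Ordered by WT tissue mean, *Adra1b* fell from PFC over STR and NPCs to ESCs with no overlap between neighbours. *Adra1d* had PFC first, and STR, NPCs and ESCs overlapped one after the other. For *Adra1a* the order was NPCs, PFC, STR and ESCs, and only ESCs were separate. *Adra2a* and *Adra2c* had STR first and PFC next, without overlap, and below them *Adra2a* overlapped between NPCs and ESCs. *Adrb1* had PFC first, then NPCs and STR, which overlapped at 32.3 ± 4.34 and 31.0 ± 2.72 CPM. *Adrb3* had ESCs first at 17.6 ± 1.46 CPM (SD, n = 2), then PFC at 4.22 ± 1.59, then STR and NPCs below 1 CPM.

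No member passed an FDR of 0.05 between KO and WT in any tissue. The counts called by the quasi-likelihood test of edgeR were 0 of 7 members tested in PFC, where 0.638% of all genes were called, 0 of 7 in STR (0% of all genes), 0 of 5 in NPCs (0.00697%) and 0 of 3 in ESCs (0%). At an unadjusted p under 0.05 there were 2 members in PFC (*Adra1a* and *Adra2a*), 1 in NPCs (*Adra1a*) and none in STR or ESCs. Of all genes tested, 727 rose and 998 fell at that p of 15364 in PFC, and 216 and 219 of 14351 in NPCs. In STR 878 rose and 468 fell of 15476, and in ESCs 108 and 63 of 15080. DESeq2 and the exact test of edgeR also called 0 members in each tissue, and each gave 1 member in STR, *Adra1a*, at an unadjusted p under 0.05. Over all genes in STR, 685 rose and 358 fell at that p with DESeq2, and 860 and 457 with the exact test. The quasi-likelihood test with the replicate number as a block called 0 members too. At an unadjusted p under 0.05 it gave *Adra1a* in PFC and NPCs, *Adra1a* and *Adra2a* in STR, and *Adra1d* in ESCs. Over all genes with the block, 839 rose and 999 fell at that p in PFC, and 752 and 756 in NPCs. The same counts were 897 and 539 in STR and 1270 and 1082 in ESCs. A difference of the KO effect between STR and PFC was called for 0 of 8 members (0.00624% of all genes), with 0 at an unadjusted p under 0.05 in edgeR and in DESeq2. Of 16028 genes tested for it, 624 were positive and 403 negative at that p in edgeR, and 492 and 341 in DESeq2.

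Among the members with enough reads to be tested, *Adra1a* had the largest KO value in PFC, STR and NPCs. In NPCs it held 21.97, 15.57 and 17.93 CPM in WT and 33.2, 28.5 and 28.1 CPM in KO replicates 1, 2 and 3. Every KO sample was above every WT sample, as for 3.57% of all genes tested there. The log2FC was 0.70 (SE 0.15, 95% interval 0.34 to 1.05, FDR 0.9998), and leaving out 1 sample at a time kept it between 0.60 and 0.83. These fits were unpaired, and with the replicate block *Adra1a* was not called in NPCs either. In the same samples 5 astrocyte genes summed to 2897 to 5966 CPM in WT and 3893 to 6724 CPM in KO, with overlap, and 5 choroid plexus genes to 6.77 to 31.5 CPM in WT and 36.2 to 41.2 CPM in KO, without overlap. The choroid plexus sum was almost all *Otx2*, at 6.7 to 31.1 CPM in WT and 36.2 to 40.7 CPM in KO. Each other gene of that list was at 0.27 CPM or less in every NPC sample. The part of the astrocyte and choroid plexus genes in the *Adra1a* value was not tested.

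In PFC *Adra1a* held 16.48, 15.25 and 9.06 CPM in WT and 21.1, 15.9 and 20.4 CPM in KO. The groups overlapped by KO replicate 2. PFC gave a log2FC of 0.45 (95% interval 0.05 to 0.86, FDR 0.376), and without WT replicate 3 it was 0.27 (FDR 0.412). In STR it was 0.58 (95% interval -0.02 to 1.19, FDR 0.586), and without KO STR replicate 1, the sample rich in hypothalamic genes, 0.32 (FDR 0.999). In ESCs *Adra1a* had 4 to 6 reads per sample and was not tested.

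A fit of all 22 samples with tissue as a term was added after these values were seen. It gave *Adra1a* a log2FC of 0.56 (SE 0.13, FDR 0.121), and 0 members were called against 0.0442% of all genes. With tissue and replicate number as a block it gave 0.58 (FDR 0.0328), the only call of a member between KO and WT, and the genes called rose from 8 to 72 of 18080. That block pairs KO with WT by number in every tissue. Same-numbered KO and WT samples did not deviate together in PFC (r from -0.03 to 0.06) or STR (r from -0.02 to 0.13). They did in NPCs (r from 0.553 to 0.729) and in ESCs (r 0.893, with 2 samples per group). Without KO STR replicate 1 the unblocked fit gave 0.50 (FDR 0.253). The other 7 members had log2FCs between -0.08 and 0.32 in the unblocked fit, with FDRs of 0.822 or more.

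For the other members the intervals show what these samples could hold. In PFC the 95% interval of the KO log2FC was -0.13 to 0.22 for *Adra1d*, -0.21 to 0.27 for *Adrb1*, -0.03 to 0.30 for *Adra1b* and -0.37 to 0.27 for *Adra2c*. *Adra1b* was higher in each KO than in each WT PFC sample, at 59.3 to 64.0 against 53.6 to 58.1 CPM, as were 8.72% of all genes there, with a log2FC of 0.13 (FDR 0.59). *Adra2a* gave 0.29 (0.00 to 0.57, FDR 0.44) in PFC and 0.33 (-0.06 to 0.72, FDR 0.647) in STR, from 14.1 to 17.3 CPM in WT and 17.1 to 21.1 CPM in KO PFC. In STR *Adra2c* gave -0.12 (-0.37 to 0.13) and *Adrb1* -0.07 (-0.35 to 0.22). Without KO STR replicate 1 these STR values were 0.45 for *Adra2a* (FDR 0.935), -0.03 for *Adra2c* and 0.05 for *Adrb1*. In PFC the summed marker genes of oligodendrocytes (936 to 1004 CPM in KO, 1236 to 1600 in WT), of astrocytes (761 to 811 and 840 to 888) and of NPCs (111 to 124.5 and 125.6 to 155.6) did not overlap between the genotypes. Their part in the receptor values was not tested.

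In the cultures the intervals ran from narrow to very wide. *Adrb1* in NPCs gave 0.18 (-0.16 to 0.52) and *Adrb3* in ESCs 0.05 (-0.36 to 0.46), while *Adra2a* in ESCs gave -0.09 with an interval of -5.32 to 5.14. A change of *Adra2a* was not detectable there in this unpaired fit. Its spread includes the difference between replicates 1 and 2, with 6 and 85 reads in WT and 6 and 70 in KO. In NPCs *Adra2a* gave -0.22 (-1.83 to 1.40) and *Adra1d* -0.37 (-1.57 to 0.82), and without WT NPC replicate 2 they gave 0.95 and 0.34 (FDR 0.999 for both).

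**Figure D5:**
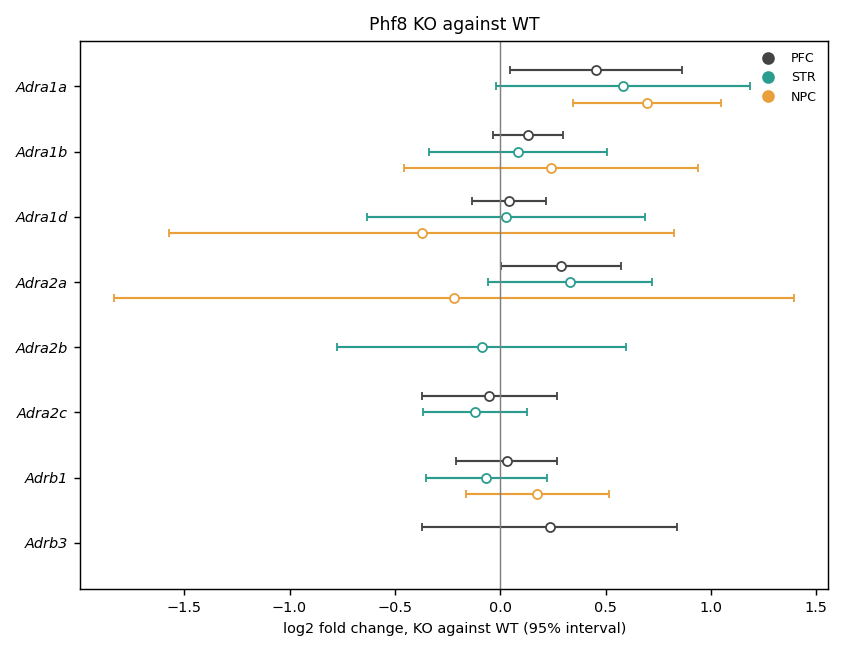
Log2FC of KO against WT with its 95% interval for each receptor gene tested in PFC (dark grey), STR (green) and NPCs (orange), with ESCs left out. All points are open because no gene passed an FDR of 0.05, and *Adra1a* lies to the right of 0 in all 3 tissues (0.45, 0.58 and 0.70).

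The other genes of adrenergic signalling were read from a list of 50 that covers noradrenaline metabolism, G protein α subunits, effectors and the proteins that switch receptors off. In KO against WT, 1 of 45 tested passed in PFC (0.638% of all genes did), 0 of 47 in STR (0%), 0 of 43 in NPCs (0.00697%) and 0 of 40 in ESCs (0%). The one that rose in PFC was *Adcy7*, which encodes an adenylyl cyclase, at 24.9 ± 2.71 CPM in KO and 14.5 ± 1.71 CPM in WT (SD, n = 3), a log2FC of 0.78 with an SE of 0.13 and an FDR of 0.0258. Every KO sample was above every WT sample, as for 8.72% of all genes there. Without WT PFC replicate 2, KO PFC replicate 2 or KO PFC replicate 3 it no longer passed (FDR 0.0987, 0.122 and 0.204), nor did it with PFC and STR fitted together (0.81, FDR 0.246). In STR *Adcy7* gave 0.91 (FDR 0.452).

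The smallest p-values elsewhere belonged to *Ddc* (dopa decarboxylase, log2FC 0.63, FDR 0.367) and *Gnas* (the Gs α subunit, 0.62, FDR 0.415) in STR, *Prkar2a* (-0.29) and *Adcy1* (0.39) in NPCs, and *Pde4d* (0.30) and *Prkaca* (-0.22) in ESCs. None of these passed, but *Ddc* did with the exact test of edgeR (FDR 0.0206) and *Prkaca* with the replicate block (FDR 0.0331). Without KO STR replicate 1, *Gnas* gave 0.35 (FDR 0.622) and *Ddc* 0.49 (FDR 0.691). The median log2FC of the list was 0.02 in PFC, 0.09 in STR, 0.04 in NPCs and 0.03 in ESCs, and that of all genes lay between -0.02 and 0.01.

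Between STR and PFC in WT, 20 of 46 list genes passed (43.5%, against 24.4% of all genes), 8 higher and 12 lower in STR, with a median log2FC of -0.05 against 0.01 for all genes. In noradrenaline metabolism *Th*, which encodes the rate-limiting enzyme of catecholamine synthesis, was higher in STR by 1.93 on the log2 scale, and *Pnmt*, whose product makes adrenaline, was at 1.86 ± 1.08 CPM in STR and 0.24 ± 0.14 CPM in PFC (log2FC 3.04). *Dbh*, whose product makes noradrenaline, was at 0.99 CPM or less in every sample, and the noradrenaline transporter gene *Slc6a2* at 0.22 CPM or less. Among G proteins *Gnaz* and *Gnaq* were lower in STR, by log2FCs of -0.40 and -0.32. Among effectors *Adcy5*, the main striatal adenylyl cyclase, was higher (1.73) and *Adcy1* lower (-1.503).

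Of the proteins that end receptor signalling, the receptor kinase gene *Grk3* was lower in STR (-0.56) and *Rgs2*, which encodes an inhibitor of Gq, was higher (0.65, FDR 0.0186). *Rgs2* lost its call without WT STR replicate 1, WT STR replicate 3, WT PFC replicate 2 or WT PFC replicate 3, with FDRs from 0.0531 to 0.142. The dopamine receptor genes, listed as a related family, passed in 4 of 4 tested, all higher in STR. *Drd2* was at 90.4 ± 5.19 CPM against 1.08 ± 0.28, and *Drd3* at 7.98 ± 1.89 CPM against no read in any WT PFC sample.

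In NPCs against ESCs 31 of 43 list genes passed in WT (72.1%, against 71.2% of all genes), 27 of them higher in NPCs, and in PFC against NPCs 37 of 45 passed (82.2%, against 77.1%), 28 of them higher in PFC. Among G proteins *Gna14* was lower in NPCs than in ESCs (-4.36) and *Gnao1* higher (4.13). Among effectors *Adcy2* was higher in NPCs (4.96), and *Adcy8* went from at most 0.10 CPM in WT ESCs to 15.8 ± 6.73 CPM in WT NPCs. *Prkar1b* (5.37) and *Adcy4* (5.31) led the effectors that were higher in PFC than in NPCs.

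Over the 12 brain samples, the genes whose log2 level ran most like that of a receptor were found by Pearson's r among 15679 genes with a mean of at least 1 CPM. They were *Kcnk9* (0.977) and *Arid5b* (0.958) for *Adra1a*, *Cpne9* (0.995) and *Adra1d* (0.994) for *Adra1b*, and *Lrrc4* (0.996) and *Cd34* (0.996) for *Adra1d*. They were *Lman2l* (0.955) and *Oxtr* (0.946) for *Adra2a*, *Dlx5* (0.994) and *Ankk1* (0.994) for *Adra2b*, and *Tac1* (0.992) and *Musk* (0.989) for *Adra2c*. For *Adrb1* they were *Gtdc1* (0.985) and *Fgf5* (0.981), and for *Adrb3* *Cemip* (0.980) and *Osbpl5* (0.978). The 12 points fall into 2 regions of 6, so these values describe mainly the difference between STR and PFC and the library each sample shares with all its genes.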

How the data were processed

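RNA was sequenced from 22 samples of *Phf8* WT and KO ESCs, NPCs, STR and PFC. The deposited values are raw read counts per gene, which the authors made by aligning reads to mm10 with STAR and counting them with HTSeq on Ensembl 75 genes. The submitters' processing notes also name CASAVA 1.7. Rows that name no gene were left out of library sizes, and reads without a feature were 9.42% to 16.8% of each sample. Of 39179 identifiers, 37693 matched GENCODE M21 (99.71% of counts). Culture libraries were counted without strand, and the strand setting of the brain libraries is not given in the sources used here.

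Counts were tested in R 4.3.3 with the edgeR 4.0.16 quasi-likelihood test, with TMM scaling, filterByExpr at a minimum count of 10 and Benjamini-Hochberg adjustment, called at an FDR under 0.05. Each comparison was fitted on its own groups. CPM used TMM factors over all samples, and RPKM the union of exons. Scripts were tested on simulated data. Intervals on counts cover counting error only.

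The members and gene lists were chosen with earlier results of these data known. Named genes were the 8 receptors, the called pathway genes in KO comparisons (or the 2 smallest p-values), the 2 largest called log2FCs per pathway list between tissues, and the 2 genes most like each receptor. *Drd2* and *Drd3* came from that rule. Of the genes this rule gave between tissues, some are left out of the text.

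Samples with the same number in PFC and STR deviated together in both genotypes (r from 0.155 to 0.421, 3 pairs each). So did KO and WT NPCs (r from 0.553 to 0.729), and both sets were taken as pairs. KO and WT ESCs also deviated together by number (r 0.893, with 2 samples per group). The main fits used no pairs, which entered only through the replicate block. Within a comparison the block was the number alone. For KO against WT in PFC or STR it thus tied KO to WT samples that were not taken as pairs. For the difference of the KO effect it tied samples of both genotypes and both regions by number, so the pairs of PFC and STR within a genotype did not enter as such. Alternatives were DESeq2 1.42.0, the exact test, RLE factors, other filters, a log2FC beyond 1, a replicate block, both tissues in 1 fit, 62 fits without 1 sample, library size alone and transcript length.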

Additional observations from a re-analysis of the deposited data

How the results depend on the processing

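No called receptor value changed sign under the alternatives run, but values that were not called did when 1 sample was left out. For KO in PFC the log2FC ran from -0.22 to 0.058 for *Adra2c* and -0.073 to 0.11 for *Adrb1*. For KO in STR the log2FC ran from -0.072 to 0.18 for *Adra1b*, -0.18 to 0.31 for *Adra1d*, -0.38 to 0.18 for *Adra2b* and -0.15 to 0.049 for *Adrb1*. For KO in NPCs the log2FC ran from -0.73 to 0.34 for *Adra1d* and -0.60 to 0.95 for *Adra2a*. For KO in ESCs the log2FC ran from -1.53 to 2.42 for *Adra1d*, -2.95 to 2.65 for *Adra2a* and -0.041 to 0.13 for *Adrb3*. For NPCs against ESCs in WT the log2FC ran from -0.40 to 3.46 for *Adra2a*. For NPCs against ESCs in KO the log2FC ran from -0.51 to 2.60 for *Adra1d* and -0.26 to 3.44 for *Adra2a*. For the difference of the KO effect between STR and PFC the log2FC ran from -0.15 to 0.33 for *Adra1a*, -0.20 to 0.046 for *Adra1b*, -0.23 to 0.26 for *Adra1d*, -0.100 to 0.21 for *Adra2a*, -0.18 to 0.065 for *Adra2c*, -0.21 to 0.017 for *Adrb1* and -0.034 to 0.57 for *Adrb3*. With the replicate block, *Adra2a* also changed sign for KO in NPCs (0.054) and for the difference of the KO effect (-0.0019).

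With at least 10 counts in every sample, the members called fell from 7 to 5 between STR and PFC in each genotype (*Adra2b* and *Adrb3* were not tested), to 0 for NPCs against ESCs in WT and 0 in KO, where none of the 4 called genes was left to test, and to 3 for PFC against NPCs. Leaving out 1 sample gave 7 to 8 members called between STR and PFC in each genotype, 4 to 4 (WT) and 4 to 6 (KO) between NPCs and ESCs, 5 to 7 between PFC and NPCs, and 0 to 0 in each KO comparison within a tissue. With the replicate block, 8 members were called between STR and PFC in each genotype and 0 in each KO comparison within a tissue, while the fit of all 22 samples called *Adra1a*. Between NPCs and ESCs, where the numbers were not taken as pairs, the block gave 5 members in WT (*Adra1d* added, FDR 0.0444) and 3 in KO (*Adra1b* lost, FDR 0.0646), and between PFC and NPCs 6 (*Adra2a* added, FDR 0.0319). DESeq2 also added *Adra2a* there (FDR 0.0287), and no filter added *Adra1a* between STR and PFC in WT (FDR 0.0453).

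Over all genes, the block moved the KO count in ESCs from 0 to 513 and in NPCs from 1 to 3. The 98 genes called in PFC became 196 with DESeq2, 376 with the exact test, 379 with no filter and 21 with both tissues in 1 fit. They became 2 without KO replicate 2 or KO replicate 3, 18 without WT replicate 2, 37 without KO replicate 1 and 154 without WT replicate 1. The 0 in STR became 53 with DESeq2 and 104 with the exact test. The cause was not tested. With library size alone, *Adra2c* in WT STR was at 82.5 CPM and *Adrb3* in WT ESCs at 15.1 CPM. With transcript length, *Adrb3* in ESCs was at 13.1 RPKM. *Adra2b* and *Adra2c*, with at most 5 reads in any culture sample, could not be compared between the cultures at this depth.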
